A study of Homo sapiens with 2 samples.

Results

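The genes examined were 10 amino acid transporters of the plasma membrane, and they were taken from the deposited gene table by symbol. All 10 were found among its 44591 genes. They were SLC7A5, SLC3A2, SLC7A11, SLC7A1, SLC7A2, SLC1A4, SLC1A5, SLC38A1, SLC38A2 and SLC6A9. Their levels were compared between HSC-1 cells, a cutaneous squamous cell carcinoma line, that received control siRNA (siNC) and HSC-1 cells that received siRNA against the lncRNA LINP1 (siLINP1). Cells of both groups were in DMEM with 10% serum, were transfected at 70% confluency, spent 6 h without serum and stayed in culture for 24 h once serum was back. Methods of the paper give another confluency and time for transfections, and the siLINP1 oligonucleotide used for sequencing is not named in the sources used here. There was 1 library per group, so no difference has a replicate check. Intervals below are 95% intervals that cover counting error only, and no p-value was computed.

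Amino acids enter cells through carriers that differ in what they take and in what drives them. SLC7A5 and SLC7A11 are light chains that work as exchangers once they are bound to the heavy chain SLC3A2. SLC7A1 and SLC7A2 carry arginine and lysine, while SLC1A4, SLC1A5, SLC38A1 and SLC38A2 bring in small neutral amino acids and glutamine together with sodium. SLC6A9 takes up glycine. When amino acids run short or eIF2α is phosphorylated, the transcription factor ATF4 is known to raise the transcription of several of these genes. The study asked whether LINP1 acts on the unfolded protein response through eIF2α, and several of these carriers are known targets of that branch.

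The siNC library held 18829544 counted reads and the siLINP1 library 15383081, and scaling factors by median of ratios were 1.08 and 0.930. The targeted gene LINP1 went from 167 reads (siNC) to 23 reads (siLINP1), or -2.65 on the log2 scale (interval -3.35 to -2.02). Of 11 genes of squamous epithelium, 5 were under 1 RPKM in both libraries, and the defining genes KRT5 (32 and 24 reads) and TP63 (6 and 8 reads) were among them. KRT14 had 243 and 87 reads, whereas ITGB4, the most read of the 11, had 5990 and 3962 reads. Of 7 mesenchymal genes, 1 was under 1 RPKM in both libraries (COL1A2, 4 and 8 reads), and VIM had 61097 and 41992 of the 65370 and 44979 reads of the list. Of 4 genes of blood cells, CD3E and HBB had no read, PTPRC had 1 and 4 reads, and CD68 had 1702 and 1307. The 7 stomach genes summed to 386 reads (siNC) and 2 reads (siLINP1). The part of these marker genes in the values below was not tested.

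Of all counted reads, 0.334% (siNC) and 0.348% (siLINP1) fell on the 10 transporters. They passed the filter of 10 reads over both libraries in all 10 cases, with 295 to 42046 reads each, whereas 19840 genes of the table did so. In log2 fold change, 7 were higher and 3 lower in siLINP1, with a median of 0.15 beside -0.023 over all genes kept. By more than 1.5-fold, the fold criterion of the study, 1 transporter was lower and 0 were higher. Of all genes kept, 13% were lower and 14.4% higher by that much, and 3.56% and 5.47% of the 7071 genes with at least 1000 reads. The whole interval lay beyond 1.5-fold lower for the same gene, SLC1A4, against 2.06% of all genes kept. The interval lay above 0 for 7 transporters and below 0 for 3, beside 31.7% and 40.7% of the genes with at least 1000 reads. SLC7A2, 1 of the 7, had 295 reads and is outside that class, with an interval from 0.23 to 0.92. Counting error alone is thus small for the other transporters, and what cultures would differ by is unknown. In bulk RNA, fewer cells with a transcript and less transcript per cell cannot be told apart.

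Levels between genes were compared as RPKM, which divides by the gene length and by the library total. Fold changes use median-of-ratios scaling instead. On the log2 scale, a fold taken from the RPKM of the 2 libraries is therefore 0.082 above the fold change given. SLC7A5, SLC3A2 and SLC1A5 made up 78.9% of the summed RPKM of the 10 transporters in siNC and 78.0% in siLINP1. In siNC, the order from the top was SLC7A5, SLC3A2, SLC1A5, SLC38A2, SLC7A1, SLC38A1, SLC1A4, SLC6A9, SLC7A11 and SLC7A2, with no overlap between the Poisson intervals of neighbours. In siLINP1, SLC3A2 stood above SLC7A5 and by value SLC1A4 stood below SLC6A9 and SLC7A11. There the interval of SLC7A11 (7.80 RPKM) overlapped those of SLC6A9 (8.51 RPKM) and SLC1A4 (6.97 RPKM). The intervals of SLC6A9 (7.77 to 9.30) and SLC1A4 (6.38 to 7.60) did not overlap, so this pair stood in the reverse of its order in siNC.

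SLC7A5, the light chain that exchanges glutamine for leucine and other large neutral amino acids, lies at chr16:87863622-87903105 on the minus strand of GRCh37/hg19. It had 26048 reads (304 RPKM) in siNC and 15998 reads (228 RPKM) in siLINP1. On the log2 scale the difference was -0.49 (interval -0.52 to -0.47), which is 1.41-fold lower and short of the 1.5-fold limit. Highly read genes leaned the same way: the 488 genes read 10000 times or more had a median of -0.20 on the log2 scale, and 7.38% of them were lower than SLC7A5. By symbol, SLC7A5P1 and SLC7A5P2 are pseudogenes of SLC7A5 whose sequence resembles it, so reads could be split among them. The deposited gene type is pseudogene for SLC7A5P1 and misc_RNA for SLC7A5P2. SLC7A5P1 had 84 and 148 reads and SLC7A5P2 had 203 and 283 reads, so both were higher in siLINP1 while SLC7A5 was lower. Together they held 287 and 431 reads, and adding them to SLC7A5 gave a log2 fold change of -0.47.

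SLC3A2 encodes CD98hc, the heavy chain that takes the SLC7 light chains to the plasma membrane, and lies at chr11:62623484-62656355 on the plus strand. It had 9865 reads (181 RPKM) in siNC and 12262 reads (275 RPKM) in siLINP1. The difference was 0.52 on the log2 scale (interval 0.48 to 0.56), or 1.44-fold higher, above 96.7% of the 488 genes with at least 10000 reads. Scaling by total count put it past the 1.5-fold limit, at 0.61. The heavy chain and its main light chain therefore stood on opposite sides of 0.

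A ratio of 2 genes within a library does not depend on the scaling. SLC7A5 was at 1.68 times the RPKM of SLC3A2 in siNC and at 0.831 times in siLINP1. This ratio was 2.02-fold lower in siLINP1, a log2 change of -1.02 (interval -1.06 to -0.97). Over the 6 light chains that can bind SLC3A2 (SLC7A5, SLC7A6, SLC7A7, SLC7A8, SLC7A10 and SLC7A11), the summed RPKM was 1.79 times that of SLC3A2 in siNC and 0.911 times in siLINP1. SLC7A5 made up 93.9% and 91.2% of that sum. SLC7A6 had 1515 and 1345 reads (log2 fold change 0.038), whereas SLC7A7 had 34 and 16 reads, SLC7A8 had 5 and 3, and SLC7A10 had none in either library. SLC7A5 and SLC3A2 thus set nearly all of the light to heavy ratio.

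SLC7A11, known as xCT, imports cystine in exchange for glutamate and feeds glutathione synthesis. It lies at chr4:139085248-139163503 on the minus strand, with 1167 reads (6.42 RPKM) in siNC and 1158 reads (7.80 RPKM) in siLINP1. The log2 fold change was 0.20 (interval 0.080 to 0.32), higher by 1.15-fold. Against SLC3A2, its RPKM ratio was 0.0356 in siNC and 0.0284 in siLINP1, a log2 change of -0.32 (interval -0.45 to -0.20). The overlapping antisense gene SLC7A11-AS1 had 24 and 31 reads.

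SLC1A4 encodes ASCT1, an exchanger of serine, alanine, cysteine and threonine, and was the transporter with the largest difference. It lies at chr2:65215579-65250999 on the plus strand. It had 1123 reads (12.5 RPKM) in siNC and 512 reads (6.97 RPKM) in siLINP1, which is -0.92 on the log2 scale (interval -1.08 to -0.77). That is 1.90-fold lower, and 0.365% of the 6583 genes between 1000 and 10000 reads were lower still. Its paralog SLC1A5 (ASCT2), a main route of glutamine uptake in tumour cells, did not share this. SLC1A5, at chr19:47278140-47291842 on the minus strand, had 7921 reads (131 RPKM) in siNC and 7370 reads (149 RPKM) in siLINP1. That is 0.11 on the log2 scale (interval 0.059 to 0.15). SLC1A4 was at 0.0951 times the RPKM of SLC1A5 in siNC and at 0.0466 times in siLINP1, and the ratio was 2.04-fold lower in siLINP1 (log2 change -1.03, interval -1.19 to -0.87).

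SLC38A1 (SNAT1) and SLC38A2 (SNAT2), which take up glutamine and alanine with sodium, are neighbours on chromosome 12. SLC38A1, at chr12:46576838-46663208, had 3989 reads (21.2 RPKM) in siNC and 4114 reads (26.8 RPKM) in siLINP1, with a log2 fold change of 0.25 (interval 0.19 to 0.32). SLC38A2, at chr12:46751971-46766645, had 7552 reads (82.1 RPKM) in siNC and 6916 reads (92.1 RPKM) in siLINP1, or 0.083 on the log2 scale (interval 0.035 to 0.13). Both lie on the minus strand. SLC38A2, which is known to be induced when amino acids are withdrawn, was thus among the transporters nearest to 0. It was above 81.6% of the 488 genes with at least 10000 reads, whose median was -0.20. The ratio of SLC38A2 to SLC38A1 was 3.87 in siNC and 3.43 in siLINP1 (log2 change -0.17, interval -0.25 to -0.093).

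SLC7A1 (CAT-1), the widely expressed carrier of arginine and lysine, lies at chr13:30083551-30169825 on the minus strand. It had 4497 reads (32.5 RPKM) in siNC and 4536 reads (40.2 RPKM) in siLINP1, higher by 0.22 on the log2 scale (interval 0.16 to 0.28). SLC7A2 (CAT-2), its relative that is induced in inflamed tissue and macrophages, lies at chr8:17354597-17428077 on the plus strand and was the least abundant of the 10. It had 129 reads (0.872 RPKM) in siNC and 166 reads (1.37 RPKM) in siLINP1. Its log2 fold change of 0.57 was the highest among the transporters, but its interval from 0.23 to 0.92 was also the widest. SLC7A2 was just inside the 1.5-fold limit and passed it with other scalings, at 0.66 by total count. SLC7A1 was at 37.3 times the RPKM of SLC7A2 in siNC and at 29.2 times in siLINP1.

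SLC6A9 (GlyT1), the sodium- and chloride-dependent glycine carrier, lies at chr1:44462155-44497164 on the minus strand. It had 652 reads (9.29 RPKM) in siNC and 488 reads (8.51 RPKM) in siLINP1. The log2 fold change was -0.21, with an interval from -0.38 to -0.037. Its 3′ end overlaps CCDC24 on the other strand, which had 194 and 166 reads. The strand setting of the counting is not given in the sources used here, so reads in the shared stretch cannot be told apart.

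**Figure D1:**
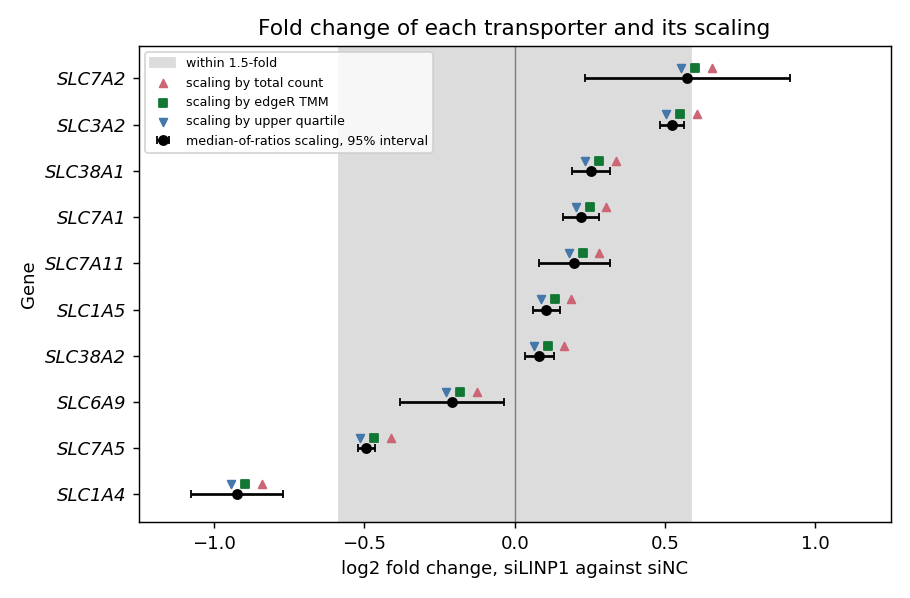
log2 fold change of each transporter in siLINP1 against siNC (black, with the 95% interval from counting error) and its value with 3 other scalings; grey marks the range within 1.5-fold. SLC1A4 lies outside the grey range with each scaling, whereas SLC7A2 and SLC3A2 cross its edge with some of them.

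Among the factors known to act on these genes, ATF4 was at 10082 and 10088 reads in siNC and siLINP1 (log2 fold change 0.21, interval 0.17 to 0.25). DDIT3, which encodes the CHOP factor of the same branch, had 1965 and 3558 reads (1.07, interval 0.99 to 1.15). MYC, which is known to raise SLC7A5 and SLC1A5 in tumours, had 564 and 908 reads (0.90, interval 0.74 to 1.05). SLC7A5 was at -0.49 and SLC1A5 at 0.11, and a part of MYC in these values was not tested. NFE2L2, which encodes NRF2, had 1781 and 1583 reads (0.039, interval -0.059 to 0.14). The mRNA levels of these factors do not measure their proteins.

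Promoter sequences show which transporters carry motifs of these factors near an annotated start. RefSeq windows from 250 bases before to 50 bases after a start (build GRCh38.p14, not the build of the counts) were matched for 8 of the 10 transporters, with 14 windows in all. SLC7A11 and SLC7A2 were not matched. TGATGNAA, the core of the C/EBP-ATF response element that ATF4 binds, was searched on both strands. It was in a window of 5 of the 8 transporters, beside 4.46% of the 27305 genes and 3.62% of the 35116 windows of the table. The 5 were SLC3A2, SLC1A4, SLC7A1, SLC1A5 and SLC38A1. Each had 1 window that held it, of 3 windows for SLC3A2 and SLC1A5, 2 for SLC1A4 and SLC38A1 and 1 for SLC7A1. The windows of SLC3A2 and SLC1A4 are shown whole because these genes differed in opposite directions while both held the motif, which reads TGATG on the minus strand in both. The capitals mark the motif, written on the strand of the gene from 5′ to 3′.
SLC3A2, chr11:62881449-62881748, plus strand: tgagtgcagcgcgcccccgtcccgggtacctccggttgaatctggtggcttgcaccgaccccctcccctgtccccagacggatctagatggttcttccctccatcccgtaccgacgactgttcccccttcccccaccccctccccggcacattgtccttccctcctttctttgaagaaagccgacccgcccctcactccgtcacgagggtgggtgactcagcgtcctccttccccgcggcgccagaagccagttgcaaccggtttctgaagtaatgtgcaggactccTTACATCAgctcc
SLC1A4, chr2:64989149-64989448, plus strand: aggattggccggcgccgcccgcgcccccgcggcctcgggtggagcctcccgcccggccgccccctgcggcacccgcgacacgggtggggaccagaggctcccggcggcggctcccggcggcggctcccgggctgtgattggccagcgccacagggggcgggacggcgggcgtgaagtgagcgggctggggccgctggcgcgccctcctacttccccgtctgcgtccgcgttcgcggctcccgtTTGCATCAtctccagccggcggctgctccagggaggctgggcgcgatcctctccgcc
In the other genes the motif lay on the strand of the gene, and 30 bases around it are shown so that its variable base and flanks can be compared.
SLC7A1, chr13:29595663-29595692, minus strand: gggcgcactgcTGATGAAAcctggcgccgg
SLC1A5, chr19:46784893-46784922, minus strand: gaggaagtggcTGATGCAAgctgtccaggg
SLC38A1, chr12:46266502-46266531, minus strand: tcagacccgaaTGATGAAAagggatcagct
Counted with the start as base 1 and the base before it as -1, the leftmost base of the motif lay at 8 in SLC7A1, at 38 in SLC3A2, at -4 in SLC38A1, at -7 in SLC1A4 and at -97 in SLC1A5. In log2 fold change, the transporters with the motif were at 0.52 (SLC3A2), 0.25 (SLC38A1), 0.22 (SLC7A1), 0.11 (SLC1A5) and -0.92 (SLC1A4). SLC38A2 (0.083), SLC6A9 (-0.21) and SLC7A5 (-0.49) had no TGATGNAA in these windows. Whether the motif bears on these values was not tested.

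The window of SLC7A5, the transporter with most reads, held instead the E-box CACGTG, which MYC and related factors bind. It is shown with the E-box in capitals, which began 130 bases before the start. The E-box reads the same on both strands.
SLC7A5, chr16:87869458-87869757, minus strand: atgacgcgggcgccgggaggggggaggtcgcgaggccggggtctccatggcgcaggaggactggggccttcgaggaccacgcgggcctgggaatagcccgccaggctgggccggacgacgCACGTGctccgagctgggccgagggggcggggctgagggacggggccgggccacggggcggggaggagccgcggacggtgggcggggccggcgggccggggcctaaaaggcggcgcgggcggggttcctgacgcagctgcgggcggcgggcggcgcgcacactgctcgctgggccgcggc
CACGTG was in a window of 2 of the 8 transporters, SLC7A5 and SLC1A5, beside 8.77% of the genes of the table. TGACNNNGC, the core of the antioxidant response element of NRF2, was in a window of 4 of the 8 (SLC3A2, SLC7A1, SLC7A5 and SLC1A5), beside 16.1% of the genes. No hit of one motif overlapped a hit of another. A match of letters is a description of the window and does not show that a factor was bound.

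The other amino acid transporters of the SLC1, SLC3, SLC6, SLC7, SLC16, SLC36, SLC38 and SLC43 families were lower more often than higher at this minimum of reads. Of 40 such genes, 21 passed the filter, with 14 lower and 7 higher in siLINP1 and a median log2 fold change of -0.18. By more than 1.5-fold, 8 were lower (38.1%) and 0 higher, beside 13% and 14.4% of all genes kept. With a minimum of 100 reads 4 were lower and 0 higher. With a minimum of 1 read 12 counted as lower and 7 as higher. The 7 had reads in siNC alone and counted as higher only through the floor set for a library without reads. Some of the 12 had reads in siLINP1 alone and counted as lower through the same floor. The counts with a minimum of 100 reads were not set beside a share of all genes. Of the 8 lower genes, SLC38A3 (87 reads over both libraries), SLC7A7 (50), SLC38A4 (17) and SLC38A5 (14) were under 100 reads. For none of the 8 did the whole interval lie beyond 1.5-fold. They were SLC1A1, SLC6A6, SLC7A7, SLC36A1, SLC38A3, SLC38A4, SLC38A5 and SLC43A2, named after their values were seen. SLC6A6, the taurine carrier and the most read gene of this list, had 3231 and 1836 reads (log2 fold change -0.61, interval -0.69 to -0.52). SLC1A1, a glutamate and cysteine carrier, had 321 and 157 reads (-0.82, interval -1.11 to -0.54), and the lysosomal exporter SLC36A1 had 522 and 263 reads (-0.78, interval -0.999 to -0.563). The next most read genes were SLC6A15, a carrier of branched-chain amino acids and proline (1590 and 1409 reads, 0.035), and the light chain SLC7A6 (1515 and 1345 reads, 0.038). All other protein-coding SLC genes, which carry sugars, ions, nucleosides and other solutes, had a median of -0.089 over 214 kept genes, with 28 higher and 28 lower by more than 1.5-fold (13.1% each).

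Amino acid response genes, which are transcribed when ATF4 is active, were not uniform either. Over the 25 genes the median was 0.068 on the log2 scale. By more than 1.5-fold, 4 were higher (16%) and 2 lower (8%), beside 14.4% and 13% of all genes kept. Of genes with at least 1000 reads, 5.47% were higher and 3.56% lower by that much. The higher ATF3, TRIB3 and ALDH1L2 had at least 1000 reads over both libraries. The higher CTH (662) and both lower genes, NUPR1 (117) and VLDLR (649), had fewer. The whole interval lay above 1.5-fold for 3 of the 25, which is 12.0% beside 3.98% of all genes kept. Intervals narrow with depth, these genes had 117 to 12434 reads each, and no share at matched depth was computed. ATF3, a stress-induced factor, had 1197 and 4929 reads (2.25, interval 2.16 to 2.34). CTH, which makes cysteine from cystathionine, had 246 and 416 reads (0.97, interval 0.74 to 1.20). TRIB3, a pseudokinase that restrains ATF4, had 2549 and 3820 reads (0.79, interval 0.72 to 0.87). Cystine and glutamine, which SLC7A11 and SLC38A1 bring in, feed glutathione and glutamine metabolism. Of 16 genes of these pathways, 12 were lower and 4 higher, with a median of -0.19. By more than 1.5-fold, 2 were lower and 0 higher, and 12.5% lower is close to the 13% of all genes kept. The whole interval lay beyond 1.5-fold for GGT5 alone, with 26 and 2 reads. Of 20 NRF2 targets other than SLC7A11, 15 were lower and 5 higher, with a median of -0.36 beside -0.023 over all genes kept. By more than 1.5-fold, 3 were lower (15%) and 2 higher (10%), beside 13% and 14.4% of all genes kept. Of these targets, FTH1, FTL, TKT and TXNRD1 had at least 10000 reads, a class of genes with a median of -0.20. SLC7A11 itself was at 0.20.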

How the data were processed

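Total RNA of HSC-1 cells given siNC or siLINP1 was sequenced, with 1 library per condition. The authors used Tophat2 for alignment to GRCh37/hg19 and HTSeq for counting, and deposited raw read counts per gene. The submitters' notes also list HISAT2 and Bowtie2. Versions, annotation and strand setting are not given in the sources used here. The RPKM values deposited by the authors were recovered from the counts, the listed gene length and the library total. The 12 other columns of per-sample values were not used.

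Size factors by median of ratios scaled the counts, and genes with fewer than 10 reads over both libraries were left out. Fold changes carry 95% Clopper-Pearson intervals of the split of reads, RPKM values exact Poisson intervals and ratios of genes log-normal (Woolf) intervals, all for counting error only. In the medians and counts of lists, a gene at 0 in 1 library was set at a floor of 3 reads there. Counts over all genes did not use this floor. The named genes were the 10 members, LINP1, 5 known regulators (1 is not reported here), and genes of 3 lists whose interval lay beyond 1.5-fold or, failing that, the 3 with most reads. Any further gene was named after its values were seen. Members and lists were chosen with earlier results of these data known. Alternatives were total count, edgeR TMM, upper quartile and protein-coding scaling, minima of 1 and 100 reads and pseudocounts of 1 and 5. The calculation was tested on simulated counts. Software was R 4.3.3 with edgeR 4.0.16 (scaling factors only) and Python 3.11.15 with scipy 1.17.1, pandas 2.3.3, numpy 2.4.6 and matplotlib 3.10.9.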

Additional observations from a re-analysis of the deposited data

How the results depend on the processing

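Each transporter kept its direction under every alternative run. Relative to median-of-ratios scaling, total count raised each log2 fold change by 0.082, TMM by 0.028 and protein-coding size factors by 0.032, and the upper quartile moved it by -0.019. With total count, values left the counting interval for SLC7A5 (-0.41), SLC3A2 (0.61), SLC7A1 (0.30), SLC1A5 (0.19), SLC38A1 (0.34) and SLC38A2 (0.16). With protein-coding size factors, SLC7A5 left it at -0.46. The transporters higher by more than 1.5-fold numbered 2 with total count (SLC3A2 and SLC7A2), 1 with TMM and 1 with protein-coding size factors (SLC7A2). Of all 19840 genes kept, 3314 were higher by that much with total count, 3022 with TMM and 3033 with protein-coding size factors. SLC1A4 was beyond 1.5-fold with all, from -0.94 to -0.84. Adding the reads of its pseudogenes to SLC7A5, chosen after seeing the data, gave -0.47.

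With total count, 1 of 25 amino acid response genes was lower and 5 of 32 genes of amino acid sensing by mTORC1 were higher by more than 1.5-fold. Of all 19840 genes kept, 2069 were lower and 3314 higher by that much with this scaling. A minimum of 1 read gave 7 higher genes among the other amino acid transporters and 49 among all other SLC genes. These 7 genes had reads in siNC alone. They counted as higher only because the floor used in lists lay above their reads in siNC, so they show no rise. The 49 were counted with the same floor. Counted without this floor, 7048 genes were higher and 6456 lower in all, so these counts cannot be set beside those of the lists. A minimum of 100 reads gave 4 lower genes among the other amino acid transporters, 1 in glutamine and glutathione metabolism, 1 higher NRF2 target, 13 higher and 16 lower among all other SLC genes, and 1163 higher and 903 lower in all. These minima change how many thinly read genes are counted.

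No paired analysis was possible because each condition had 1 library. Depth limits SLC7A2 most, and the lack of replicates limits all values.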

Other observations

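Genes by which cells sense amino acids and pass the signal to the kinase mTORC1 had a median of -0.13 on the log2 scale over 32 genes, with 13 higher and 19 lower in siLINP1. By more than 1.5-fold, 3 were higher and 3 lower (9.38% each, beside 14.4% and 13% of all genes kept). Of genes with at least 1000 reads, 5.47% were higher and 3.56% lower by that much. The 3 higher genes form the folliculin complex, which acts on the Rag GTPases at the lysosome. FNIP2 was at 202 reads with siNC and 456 with siLINP1 (log2 fold change 1.38, 95% interval 1.14 to 1.63), FNIP1 had 519 and 915 (1.03, interval 0.87 to 1.19) and FLCN had 746 and 1034 (0.68, interval 0.54 to 0.82). The 3 lower genes were DEPDC5, a subunit of the GATOR complex that restrains mTORC1 (281 and 123 reads, -0.98, interval -1.30 to -0.67), the GTPase gene RHEB (1645 and 876 reads, -0.70) and GATSL3, an arginine sensor (91 and 49 reads, -0.68). SESN2, a leucine sensor that is also an ATF4 target, had 2291 and 2809 reads (0.50, interval 0.42 to 0.58). The genes of this paragraph were named after their values were seen, and the difference between the libraries has no replicate check.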
